A study of Mus musculus with 14 samples.

Results

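The comparison described here is that of thymus from miR-34a-minus mice with a pool of thymus RNA from control mice, on 8 of the 14 hybridisations of the series. The members were taken by sample title, which gave 8 arrays of 4 mutant mice, each mouse on 2 arrays with the dyes exchanged. The other 6 arrays hold brain of mice 1 to 3 against a control brain pool. Mutant and control animals were male, 17 weeks old and of C57BL/6 background, and no treatment is named. The mutant genotype is given in the labels as mir-34a minus, with no word on how the allele was made, and the controls are called control or Wt. Each hybridisation used 20 µg of total RNA of 1 mutant organ, labelled with Cy3 or Cy5, against the pool in the other dye. The pool lists 4 animals, while the labelling protocol speaks of 6, and no control thymus was hybridised alone, so that the pool counts as 1 control sample. The first thymus array of mouse 1 has brain as its tissue label, against thymus in the title and the pool's name, and counts as thymus here. The arrays carry spotted cDNA clones, and each ratio below is log2 of mutant thymus over control thymus pool, averaged over the dye-swapped arrays of a mouse, with the SD over mice.

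MicroRNAs are short RNAs that pair through their seed, bases 2 to 8, with sites mostly in 3′ untranslated regions and lower the stability or translation of the messengers that hold them. In mouse and human cells miR-34a is switched on by the tumour suppressor p53, and its described targets include genes of the cell cycle, of survival and of Notch signalling. The thymus is the organ in which T cells mature: thymocytes that express both Cd4 and Cd8a make up most of its cells, held in a meshwork of epithelium with macrophages and dendritic cells, and many of them die by apoptosis during selection.

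Mature sequences of miR-34a-5p and of mouse family members picked by name from the RefSeq table are shown, with the seed in capitals. A shared seed means shared candidate sites. The set is not the full family, as mature miR-34c-5p is not in that table. miR-34a-5p lies at chr4:150068473-150068494 on the + strand of GRCm38.p6.
mmu-miR-34a-5p: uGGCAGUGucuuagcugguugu
mmu-miR-34b-5p: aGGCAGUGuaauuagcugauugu
mmu-miR-449a-5p: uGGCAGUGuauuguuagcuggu
mmu-miR-449c-5p: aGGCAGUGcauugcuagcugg
All 4 have 1 seed in common, GGCAGUG. No named probe of the array stands for Mir34a, and its loss was not checked here.

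Fewer probes were detected on 7 of the 8 thymus arrays than on any brain array. A probe was called detected where its signal in at least 1 channel lay 2 background SDs above the background median, and this held for 7.75% to 84.9% of probes on thymus arrays, against 56.2% to 94.4% on brain arrays. The scanner files flag 9.32% to 72.4% of thymus spots and 0.812% to 10.7% of brain spots. The median signal over background was 1.05 to 1.63 in Cy5 and 1.15 to 2.59 in Cy3 on thymus arrays. The 2 arrays of a mouse could differ widely in yield: those of mouse 3 detected 84.9% and 19.7% of probes, and those of mouse 4 detected 46.9% and 7.75%. Of 20160 probes, 5321 were detected on 4 or more of the 8 thymus arrays and had values in at least 2 mice, and these were tested. Among them 1813 probes had values in all 4 mice, 1749 in 3 and 1759 in 2. A probe carries a gene name here only where its accession matched the RefSeq table, which was so for 403 tested probes of 394 genes.

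**Figure D1:**
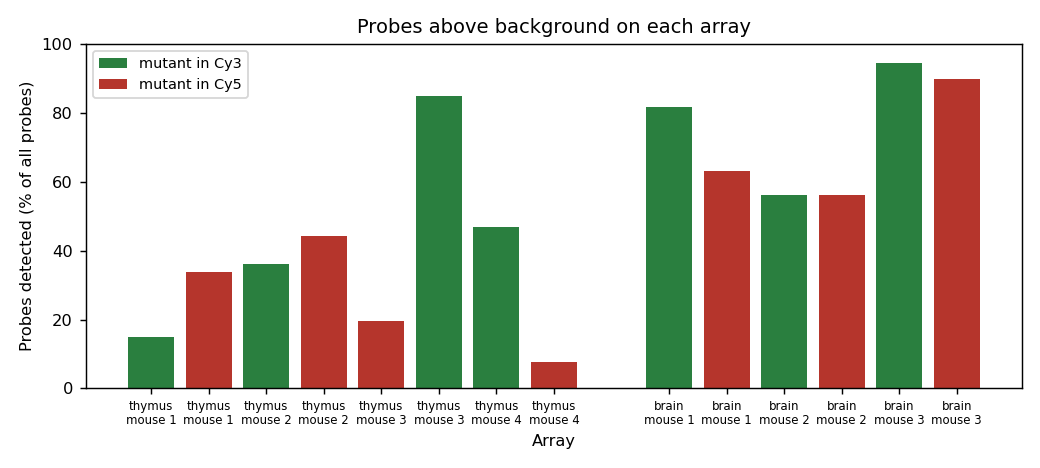
Share of all probes detected on each array, in percent, for the 8 thymus arrays and then the 6 brain arrays, coloured by the dye that labelled the mutant RNA. Thymus arrays lie between 7.75% and 84.9%, and brain arrays between 56.2% and 94.4%.

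At the border of the detection rule, 1895 of 2825 probes detected on 4 thymus arrays were tested, with a median absolute ratio of 0.093 and a median SD over mice of 0.14. The 1790 probes with values in at least 2 mice that were detected on 3 arrays, and were therefore not tested, had a median absolute ratio of 0.10 and a median SD of 0.15. Probes detected on all 8 arrays, 600 in number, had a median absolute ratio of 0.051 and a median SD of 0.13. Ratios were thus closer to 0 among the better measured probes.

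No probe passed the test between mutant thymus and the control pool. In limma's moderated test with Benjamini-Hochberg adjustment, 0 of 5321 probes (0%) had an adjusted p below 0.05, and the smallest adjusted p was 0.853. At an unadjusted p below 0.05 there were 267 probes (5.02%), 128 above 0 and 139 below. A fit with arrays as units and the mouse as a random block also called 0 probes, with 301 at an unadjusted p below 0.05. The median ratio over all tested probes was -0.0023, and 49.2% of probes lay above 0. The median half-width of the 95% confidence interval was 0.23, and 93.9% of intervals lay wholly within a 1.5-fold difference. For the other probes the interval reached past 1.5-fold. The intervals hold for the processed ratios, which the offset of the background correction pulls toward 0 on dim spots. They do not bound the fold in the RNA. Without borrowing spread across probes, the sign flips of 4 mice could give no two-sided exact p below 0.125.

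**Figure D2:**
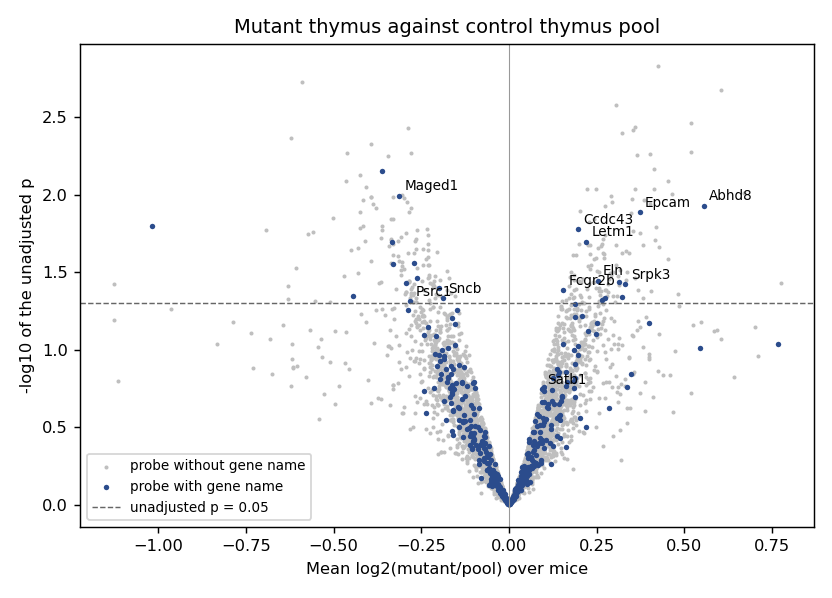
Mean log2 ratio of mutant thymus over control pool against -log10 of the unadjusted p for 5321 tested probes, with probes that carry a gene name in blue and the line at an unadjusted p of 0.05. Of the probes, 49.2% lie above 0, and the smallest adjusted p is 0.853.

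Ratios beyond 1.5-fold came mostly from probes measured in few mice. Of 33 such probes, 22 had values in 2 mice, 10 in 3 and 1 in all 4. Beyond 2-fold there were 4 probes, each with values in 2 mice. One of them, a probe of the uncharacterised gene 4921524J17Rik named after its value was seen, had a ratio of -0.37 in mouse 1 and -1.66 in mouse 2, while another probe of that gene averaged -0.025 ± 0.19 (SD, n = 3 mice). Mouse 4 had the widest spread of ratios: over the 1813 probes with 4 mice its SD was 0.249, against 0.183, 0.160 and 0.176 in mice 1 to 3. It held 52 probes beyond 1.5-fold, against 18, 14 and 20 in mice 1 to 3.

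The ratios of single arrays followed the dye more than the mouse. Over the 1813 probes with values on all 8 arrays, the ratios of the 2 arrays of a mouse correlated at -0.196 to -0.0905 (4 pairs). Arrays of different mice with the mutant in the same dye correlated at 0.0791 to 0.204 for Cy3 and at 0.0211 to 0.305 for Cy5, with 6 pairs each. All 12 pairs of different mice with exchanged dyes had a correlation below 0, at -0.319 to -0.0157. These correlations are across probes that share print and labelling, and are given as descriptions only. After averaging the dyes, the ratios of different mice correlated at -0.0723 to 0.138. The SD over probes of the mean Cy5 over Cy3 ratio was 0.146, and that of the mean mutant over pool ratio was 0.0998. Averaging both orientations cancels a dye effect that is equal in both.

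**Figure D3:**
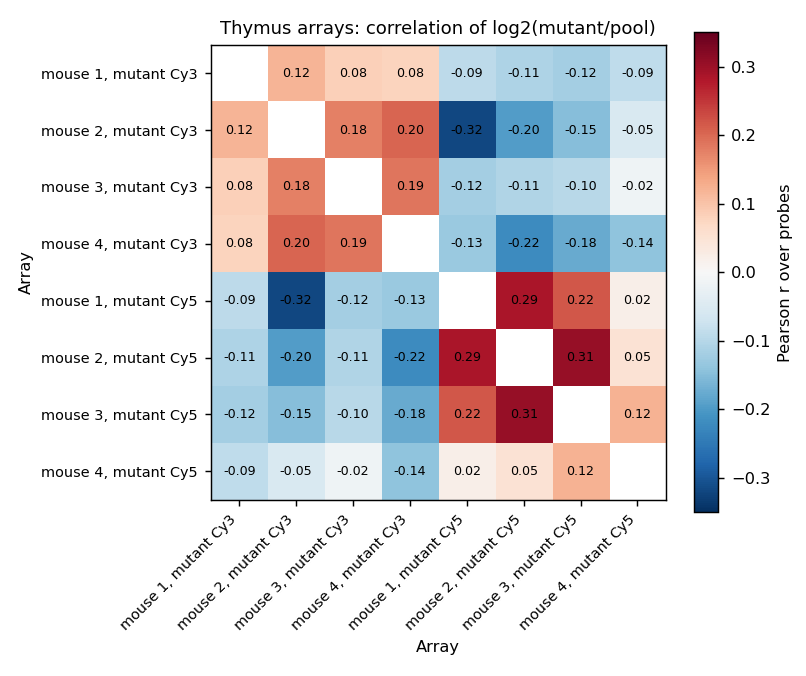
Pearson correlation of the log2 mutant over pool ratio between the 8 thymus arrays over 1813 probes, ordered by the dye of the mutant RNA and then by mouse. Pairs within a dye are all above 0 and pairs across dyes are all below 0.

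A ratio of 1 sign on all 8 arrays was found for 22 of these 1813 probes (1.21%), 18 above 0 and 4 below, with ratios from -0.19 to 0.36. A sign that followed the dye on all 8 arrays was found for 106 probes (5.85%). All 4 mice were above 0 for 159 probes (8.77%) and below 0 for 95 (5.24%). Of the 394 named genes, 136 had values in all 4 mice. Of these 136, 24 (17.6%) had 1 sign in the 4 mice, 16 above 0 and 8 below, and 5 (3.68%) had 1 sign on all 8 arrays. In 88 of the 136 genes (64.7%) the mean ratio had opposite signs in the dye orientations.

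Among the 5 named genes of 1 sign on all 8 arrays, Ccdc43, which encodes a coiled-coil protein, had a ratio above 0 on every array and did not pass the test. Its ratios were 0.059, 0.13, 0.28 and 0.081 with the mutant in Cy3, in mice 1 to 4, and 0.29, 0.19, 0.24 and 0.29 with the mutant in Cy5. The 4 mice gave 0.17 in mouse 1, 0.16 in mouse 2, 0.26 in mouse 3 and 0.19 in mouse 4, a mean of 0.20 ± 0.046 (SD, n = 4 mice) with a 95% interval of 0.047 to 0.34. Fcgr2b, the inhibitory receptor for IgG on B cells and myeloid cells, had ratios of 0.082, 0.10, 0.040 and 0.019 in Cy3 and 0.27, 0.27, 0.16 and 0.30 in Cy5. The 4 Cy5 values of Fcgr2b were all higher than the 4 Cy3 values, and the mean was 0.16 ± 0.037 (SD, n = 4 mice). Satb1, the chromatin organiser that thymocytes express at high level, had ratios of 0.26, 0.076, 0.013 and 0.040 in Cy3 and 0.023, 0.038, 0.13 and 0.17 in Cy5, with a mean of 0.093 ± 0.037 (SD, n = 4 mice). Its orientations did not separate, and its interval of -0.054 to 0.24 included 0. The adjusted p of each of the 3 genes was 0.853.

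Sncb and Adcy6 were the named genes with all 8 ratios below 0. Sncb, the neuronal protein beta-synuclein, had ratios of -0.070, -0.069, -0.062 and -0.35 in Cy3 and -0.0034, -0.68, -0.11 and -0.18 in Cy5, with a mean of -0.19 ± 0.16 (SD, n = 4 mice). The lowest value came from 1 array of mouse 2, and the mutant channel was above background on 2 arrays, against 6 for the pool channel. Adcy6, an adenylyl cyclase that makes cyclic AMP, had ratios of -0.12, -0.0047, -0.039 and -0.18 in Cy3 and -0.061, -0.10, -0.076 and -0.19 in Cy5, with a mean of -0.10 ± 0.061 (SD, n = 4 mice). The largest distance from 0 was in mouse 4, on both of its arrays. Neither gene passed the test, at an adjusted p of 0.853 each.

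**Figure D4:**
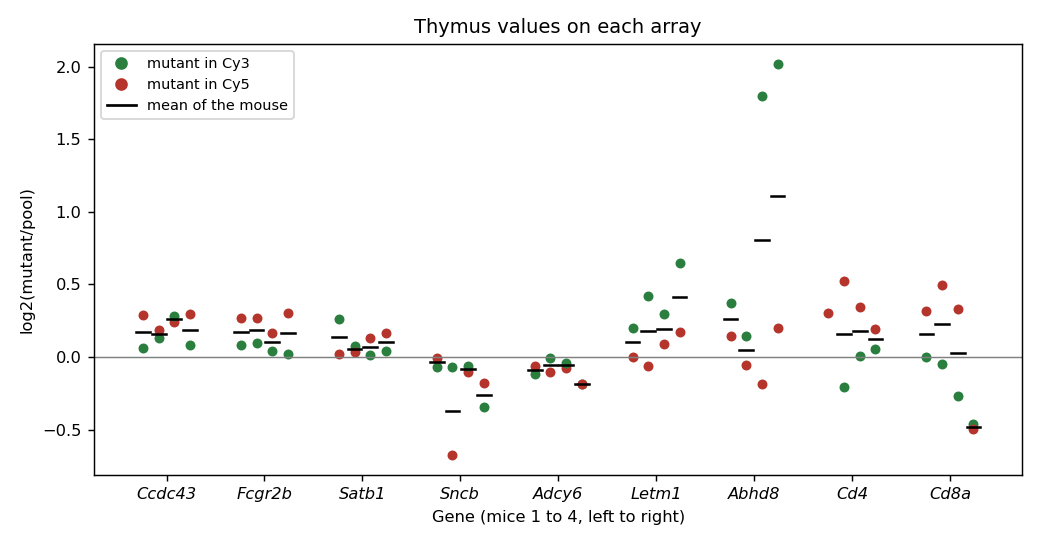
Log2 ratio of mutant thymus over control pool on each array for 9 genes, coloured by the dye of the mutant RNA, with mice 1 to 4 from left to right and a bar for the mean of a mouse. Ccdc43, Fcgr2b and Satb1 lie above 0 on all 8 arrays, Sncb and Adcy6 lie below 0, and Abhd8 reaches 1.80 and 2.02 on 2 arrays with the mutant in Cy3.

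Of the genes with 1 sign in all 4 mice, Abhd8, which encodes a protein with an alpha/beta hydrolase fold, had the highest mean. Its mouse values were 0.26 in mouse 1, 0.047 in mouse 2, 0.81 in mouse 3 and 1.11 in mouse 4, with a mean of 0.56 ± 0.49 (SD, n = 4 mice) and a 95% interval of 0.16 to 0.95. The Cy3 arrays of mice 3 and 4 gave 1.80 and 2.02, while their Cy5 arrays gave -0.19 and 0.20. The mean was thus 1.08 in Cy3 and 0.027 in Cy5, and the adjusted p was 0.853. Srpk3, a kinase of splicing factors best known from muscle, averaged 0.33 ± 0.37 (SD, n = 4 mice), of which mouse 3 gave 0.86 and mouse 2 gave 0.010. Letm1, an ion exchanger of the inner mitochondrial membrane, had 0.10 in mouse 1, 0.18 in mouse 2, 0.19 in mouse 3 and 0.41 in mouse 4, with a mean of 0.39 in Cy3 and 0.049 in Cy5. Purb, which binds purine-rich single strands of DNA and RNA, averaged 0.19 ± 0.18 (SD, n = 4 mice), with 0.034 in Cy3 and 0.34 in Cy5. For Abhd8, Letm1 and Purb the mean thus came mainly from 1 orientation. Ehd3 (endocytic recycling), the metalloprotease Adam10 and the zinc finger genes Zfp13 and Zkscan2 averaged 0.096 to 0.099. Of these, Zkscan2 had opposite signs in the orientations, 0.30 in Cy3 and -0.11 in Cy5, and so did Ehd3, at -0.021 in Cy3 and 0.22 in Cy5.

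On the low side, 8 named genes had 1 sign in all 4 mice. Idh3g, a subunit of the mitochondrial isocitrate dehydrogenase of the citric acid cycle, averaged -0.16 ± 0.13 (SD, n = 4 mice), with -0.11 in mouse 1, -0.29 in mouse 2, -0.0046 in mouse 3 and -0.25 in mouse 4. Znrf4, a RING-type ubiquitin ligase, averaged -0.15 ± 0.066 (SD, n = 4 mice) and had close means in the orientations, -0.16 in Cy3 and -0.14 in Cy5. Nfkbia, the inhibitor of NF-kappaB that T cell activation degrades and renews, averaged -0.13 ± 0.13 (SD, n = 4 mice). Hspa1l of the Hsp70 chaperones averaged -0.10 ± 0.068, and Cd96, a receptor of T and NK cells, averaged -0.10 ± 0.059 (SD, n = 4 mice each). The RNA helicase Ddx5 lay nearest to 0, at -0.040 ± 0.033 (SD, n = 4 mice). The upper limit of the 95% interval lay above 0 for 7 of these 8 genes, the exception being Sncb.

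Of the named genes with values in all 4 mice, Ank1, Stt3a, Ncoa4, Lrrc75b and Abhd8 had the largest SDs over mice. Ank1, an ankyrin of red cells, had 0.12 in mouse 1, -0.17 in mouse 2, -0.080 in mouse 3 and 1.28 in mouse 4, and the value of mouse 4 rested on 1 array at 2.33 and another at 0.23. Stt3a, a catalytic subunit of the complex that attaches N-glycans, had -0.74 in mouse 1, -0.11 in mouse 2, 0.51 in mouse 3 and -0.60 in mouse 4, on both sides of 0. Ncoa4, the receptor for ferritin breakdown, had 0.95 in mouse 1, and its other 3 mice lay at -0.27 to -0.035. Lrrc75b, a leucine-rich repeat gene, had 0.94 in mouse 4 and -0.21 to 0.12 in the others. For Ank1, Stt3a, Ncoa4 and Lrrc75b the SD over mice exceeded the mean.

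Among named genes detected on all 8 thymus arrays, where measurement was best, 39 genes had ratios between -0.097 (Tra2b) and 0.22 (Letm1). Of these, 24 were above 0 and 15 below. An unadjusted p below 0.05 was found for 3 of them, Ccdc43, Letm1 and Fcgr2b, chosen after their values were seen. Over all 394 named genes, 23 (5.84%) had an unadjusted p below 0.05, against 5.02% of all tested probes, and 187 were above 0 and 207 below.

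No gene of developing T cells passed the test between mutant thymus and the pool. In RNA of a whole organ, fewer cells of a type and less RNA per cell cannot be told apart. Of thymocyte markers, 4 of the 5 genes with a named probe were tested, 3 above 0 and 1 below, with a median ratio of 0.12, against -0.0023 over all tested probes, and 0 passed the test. Cd8a, the coreceptor of cytotoxic T cells, was detected on all 8 arrays and had 0.16 in mouse 1, 0.23 in mouse 2, 0.030 in mouse 3 and -0.48 in mouse 4. Mouse 4 lay below the other 3 on both of its arrays, at -0.46 and -0.50, and the mean was -0.016 ± 0.32 (SD, n = 4 mice). Over the 4 mice Cd8a averaged -0.19 in Cy3 and 0.16 in Cy5. Cd4, the coreceptor of helper T cells, had 0.16 in mouse 2, 0.18 in mouse 3 and 0.13 in mouse 4. These 3 values were close together, but Cd4 averaged -0.049 with the mutant in Cy3 and 0.34 in Cy5, and its interval of -0.033 to 0.34 included 0. Endou, an endoribonuclease used here as a thymocyte marker, averaged 0.14 ± 0.27 (SD, n = 3 mice), with -0.12 in Cy3 and 0.49 in Cy5. The intervals of all 4 genes included 0.

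Of genes that relay the T cell receptor signal, 4 of the 5 genes with a named probe were tested, 2 above 0 and 2 below, with a median ratio of 0.031. Ptprc, the phosphatase CD45 of all white blood cells, averaged 0.090 ± 0.17 (SD, n = 3 mice). The ubiquitin ligase Cbl averaged 0.072 ± 0.15 (SD, n = 4 mice), and phospholipase Plcg1 averaged -0.011 ± 0.0094 (SD, n = 2 mice). Of transcription factors of the T lineage, Zbtb7b, which fixes the CD4 fate, averaged -0.17 ± 0.20 (SD, n = 2 mice). Mice lay on both sides of 0 for Ptprc and Cbl, and both mice lay below 0 for Zbtb7b and Plcg1. Single arrays of these last genes lay on both sides of 0. Zbtb7b reached 0.61 on an array of mouse 4, which gave no mouse value, and Plcg1 had 3 arrays above 0 and 3 below. None of these genes passed the test.

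The supporting cells of the thymus were represented by few probes. Epcam, an adhesion molecule of thymic epithelium, had 0.37 in each of the 2 mice with a value, with a 95% interval of 0.12 to 0.63 and an adjusted p of 0.853. Its ratio on single arrays ran between -0.15 and 0.56, with the lowest on an array of mouse 4, which gave no mouse value. Ly75, the endocytic receptor DEC-205 of cortical epithelium and dendritic cells, averaged -0.10 ± 0.19 (SD, n = 3 mice). Of macrophage and dendritic cell genes, 3 of the 11 genes with a named probe were tested, 2 above 0 and 1 below, with a median ratio of 0.074. Beside Fcgr2b these were C1qa, a chain of complement C1q, at 0.074 ± 0.090 in 3 mice, and Csf1r, the receptor for macrophage colony-stimulating factor, at -0.17 ± 0.053 in 2 mice. Macrophage genes thus lay on both sides of 0. Of genes of stroma, vessels and fat, 5 of the 7 genes with a named probe were tested, 2 above 0 and 3 below, with a median ratio of -0.056. Eln (elastin) averaged 0.25 ± 0.18 (SD, n = 3 mice) and Mgp (matrix Gla protein) averaged 0.14 ± 0.16 (SD, n = 4 mice), while the lipase Lpl averaged -0.17 ± 0.30 (SD, n = 4 mice) with a second probe at -0.16.

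**Figure D5:**
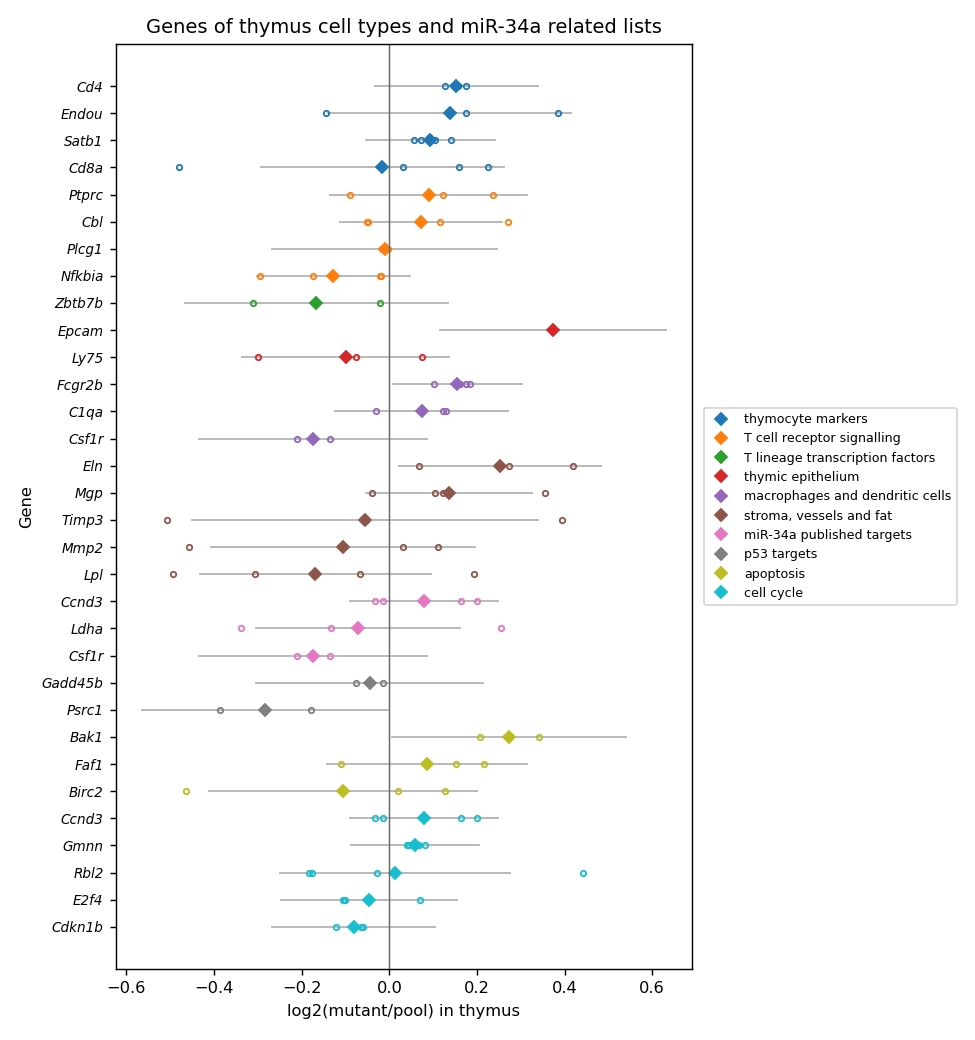
Log2 ratio of mutant thymus over control pool for tested genes of 10 lists, with open circles for mice, diamonds for the mean and lines for limma's 95% interval, without Mta2, whose mutant channel was not above background, and without members not reported here. Means lie between -0.28 (Psrc1) and 0.37 (Epcam), and none passed the adjusted threshold.

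Genes described as targets of miR-34a, mostly in human cells, were few on the array. Of 8 with a named probe, 4 were tested and 0 passed: Ccnd3 lay above 0, Csf1r and Ldha below, and Mta2 gave no fold. Ccnd3, cyclin D3 of the G1 phase, had -0.014 in mouse 1, 0.20 in mouse 2, 0.16 in mouse 3 and -0.033 in mouse 4, with a mean of 0.079 ± 0.12. Ldha, lactate dehydrogenase A, had 0.26 in mouse 1, -0.072 in mouse 2, -0.13 in mouse 3 and -0.34 in mouse 4, with a mean of -0.071 ± 0.25. Ldha averaged -0.36 in Cy3 and 0.21 in Cy5, and Ccnd3 averaged -0.085 in Cy3 and 0.24 in Cy5. Csf1r, whose mean was given above, averaged 0.10 in Cy3 and -0.27 in Cy5 over all arrays with a value. Each of these genes thus had opposite signs in the orientations. For both Ccnd3 and Ldha the mice lay on both sides of 0, and the 95% intervals were -0.091 to 0.25 and -0.30 to 0.16. Mta2, of the NuRD chromatin complex, met the detection rule in the pool channel on 4 arrays and in the mutant channel on none. Its fold is not given and no direction is read from it. The computed value was below 0 in mouse 1 and above 0 in mouse 3, the latter through 1 array. Pex14, a peroxisomal import receptor, was the only tested gene among named neighbours of Mir34a on chromosome 4, and averaged 0.067 ± 0.10 (SD, n = 2 mice).

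The p53 pathway, upstream of miR-34a, and the processes that its targets serve gave no call either. Of p53 targets, 2 of the 6 genes with a named probe were tested, 0 above 0 and 2 below, with a median ratio of -0.16. Psrc1, which encodes a spindle protein, had -0.18 in mouse 2 and -0.39 in mouse 3, and Gadd45b, a stress gene, averaged -0.045 ± 0.043 (SD, n = 2 mice) with a second probe at 0.051. Of apoptosis genes, 4 of the 8 genes with a named probe were tested, 3 above 0 and 1 below, with a median ratio of 0.052. Bak1, which opens the outer mitochondrial membrane, had 0.21 in mouse 1 and 0.34 in mouse 2. Mice 3 and 4 gave no mouse value for Bak1, with single arrays at 0.062 and -0.42. Faf1, which binds the death receptor Fas, averaged 0.086 ± 0.17 (SD, n = 3 mice). The inhibitor of apoptosis Birc2 averaged -0.11 ± 0.31 (SD, n = 3 mice). Of cell cycle genes, 5 of the 14 genes with a named probe were tested, 3 above 0 and 2 below, with a median ratio of 0.013. Gmnn, geminin, which blocks relicensing of replication origins, had the closest set of mice among them. Its means were 0.068 in mouse 1, 0.041 in mouse 2, 0.080 in mouse 3 and 0.044 in mouse 4. The 2 arrays of each mouse lay on opposite sides of 0, however. Cdkn1b, the inhibitor p27, averaged -0.082 ± 0.034 (SD, n = 3 mice), with 0.16 in Cy3 and -0.28 in Cy5. In the Notch pathway, which T cell commitment needs, Adam10, which cleaves Notch, averaged 0.10 ± 0.084 (SD, n = 4 mice) and the protease Furin averaged 0.012 ± 0.37 (SD, n = 4 mice), with -0.27 in Cy3 and 0.29 in Cy5 for Furin. No gene of these 4 lists passed the test.

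Ribosomal protein genes lay close to 0 in the mean. All 6 ribosomal protein genes with a named probe were tested in 4 mice, 4 above 0 and 2 below, with a median of 0.015 and a range of -0.051 (Rpl30) to 0.10 (Rpl8). Rpl27 had 0.044 in mouse 1, 0.0051 in mouse 2, -0.0021 in mouse 3 and 0.022 in mouse 4, the smallest spread of the group. Splicing and RNA-binding genes were tested for 8 of 18, 4 on each side of 0, with a median of -0.0063. The splicing factor Srsf4 had -0.86 in mouse 4 and -0.0025 to 0.18 in the others. Of genes of the cytoskeleton and cell adhesion, 7 of 12 were tested, 5 above 0 and 2 below, with a median of 0.064. Cd47, the signal that keeps macrophages from eating a cell, was detected on all 8 arrays and had 0.068 in mouse 1, 0.036 in mouse 2, 0.045 in mouse 3 and 0.17 in mouse 4.

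The list of mitochondrial genes also held the cytosolic Idh1. In this list 5 of the 6 genes with a named probe were tested, 1 above 0 and 4 below. The median ratio was -0.10, the value of Idh1. Beside Idh3g the low ones were Atp5a1 of the ATP synthase, Idh1 of the cytosol and Ndufb3 of complex I, with means of -0.13 to -0.049, while the import pore Tomm40 averaged 0.10 ± 0.11 (SD, n = 4 mice). Of genes of glycolysis and lipid synthesis, 1 was above 0 and 3 were below, with a median of -0.10. Pfkm, a phosphofructokinase, averaged -0.13 ± 0.27 (SD, n = 3 mice), and the desaturase Scd2 averaged -0.14 ± 0.24 (SD, n = 3 mice). The intervals of all these genes included 0. The translation factor Eif4e, which binds the messenger cap, had 0.49 in mouse 1, 0.064 in mouse 2, -0.0044 in mouse 3 and 0.29 in mouse 4, and Pabpc1, which binds the poly(A) tail, averaged 0.0023 ± 0.10 (SD, n = 4 mice). Chaperones had a median of -0.0028 over 4 genes, with Cct5 of the chaperonin at 0.057 ± 0.027 (SD, n = 4 mice). Proteasome and ubiquitin genes had a median of -0.028 over 4 genes, all between -0.058 and 0.0024.

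Of chromatin genes other than Mta2, the acetyltransferase Kat5 averaged -0.20 ± 0.24 (SD, n = 3 mice), and Ezh2, which methylates histone H3, averaged -0.029 ± 0.21 (SD, n = 4 mice). Mbd2, which binds methylated DNA, averaged 0.051 ± 0.081 (SD, n = 4 mice). Of genes of the interferon and cytokine response, 1 was above 0 and 3 were below, with a median of -0.024. The interferon receptor chains Ifnar2 and Ifngr1 averaged -0.13 ± 0.23 and -0.0033 ± 0.15 (SD, n = 4 mice each), and the cytokine Il4 averaged 0.076 ± 0.27 (SD, n = 3 mice). Mice lay on both sides of 0 for each of the 3. Over all 27 lists, 0 tested genes passed the adjusted threshold.

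Genes of tissues that lie outside the thymus, or may come with it in dissection, were also few. Of muscle genes, 2 of the 7 genes with a named probe were tested, 1 above 0 and 1 below, with a median ratio of -0.046. Tnnt3, a troponin of fast muscle, averaged -0.14 ± 0.072 (SD, n = 3 mice), with all 3 values below 0, and Tcap of the sarcomere averaged 0.050 ± 0.19 (SD, n = 2 mice). Of neuronal and glial genes, 5 of the 16 genes with a named probe were tested, 2 above 0 and 3 below, with a median ratio of -0.068. Beside Sncb, the synaptic vesicle protein Syn1 averaged 0.19 ± 0.27 (SD, n = 3 mice), and the vesicular glutamate transporter Slc17a7, detected on all 8 arrays, averaged -0.068 ± 0.10 (SD, n = 4 mice). No gene of either list passed the test.

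Brain of mice 1 to 3 was set beside thymus to test where the ratio differed between organs. The test of thymus minus brain took the mouse values as independent, although mice 1 to 3 gave both organs. It called 0 of 5160 probes (0%), with 355 (6.88%) at an unadjusted p below 0.05 and a smallest adjusted p of 0.692. In brain itself 0 of 17586 probes passed, with 785 (4.46%) at an unadjusted p below 0.05. Of the 5 named genes of smallest p for the difference, Ccdc43 averaged 0.20 ± 0.046 in thymus and -0.12 ± 0.087 in brain. Idh3g averaged -0.16 ± 0.13 in thymus and 0.15 ± 0.11 in brain. Maged1, of the MAGE family, averaged -0.31 ± 0.13 in thymus (n = 3) and 0.025 ± 0.065 in brain. Ugcg, the glucosylceramide synthase, and the kinase Aatk had values in 2 thymus mice. Ugcg averaged -0.33 ± 0.019 in thymus and 0.088 ± 0.14 in brain, and Aatk averaged -0.33 ± 0.14 in thymus and 0.039 ± 0.015 in brain. The adjusted p of the difference was 0.692 for each of the 5. In thymus the mutant channel of Idh3g, Maged1 and Aatk was above background on 2 arrays each, against 5, 4 and 5 for the pool channel. The counts were 3 against 2 for Ugcg and 7 against 7 for Ccdc43. Idh3g averaged -0.27 in Cy3 and -0.053 in Cy5 in thymus. Fcgr2b had the same sign in both organs, at 0.16 ± 0.037 in thymus and 0.24 ± 0.039 in brain, with an adjusted p of 0.773 for the difference. Satb1 averaged 0.093 ± 0.037 in thymus and 0.15 ± 0.26 in brain. Unless given, n was 4 mice for thymus and 3 for brain.

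The arrays labelled thymus were set against marker genes by spot intensity, as quantile-normalised log2 intensity averaged over both channels and per mouse. Flagged spots, more frequent on thymus arrays, were left out before the normalisation. A tested probe had to be detected in both organs, so the split by direction is not read as an organ difference. The test again took the mouse values as independent. Of 5160 probes, 200 (3.88%) differed between thymus and brain, 18 higher and 182 lower in thymus (78 higher and 108 lower with flagged spots kept), and 980 (19.0%) had an unadjusted p below 0.05. The count was 139 without mouse 1, 57 without mouse 2, 54 without mouse 3 and 124 without mouse 4, and 84 with the mouse as a block for mice 1 to 3. Of 19 listed thymocyte and T cell markers, 3 had a named probe. Satb1 measured 8.49, 8.67, 7.65 and 8.21 in thymus of mice 1 to 4, against 6.81, 6.87 and 6.89 in brain of mice 1 to 3. The mouse values of the groups did not overlap, with means of 8.25 ± 0.45 and 6.86 ± 0.037 and a limma adjusted p of 0.014. The 2 arrays of mouse 3 gave 8.30 and 6.995. The lower value, near those of brain, came from the thymus array with the most probes detected, 84.9%. Cd8a was detected on 8 of 8 thymus arrays and on 2 of 6 brain arrays, with 7.14 ± 0.30 (SD, n = 4) in thymus and 6.43 ± 0.18 (SD, n = 2) in brain, and was not tested. Cd4 did not pass the test, at 6.87 ± 0.15 in thymus and 6.92 ± 0.21 in brain (adjusted p = 0.905, SD, n = 3 each). Stmn2, a neuronal regulator of microtubules, measured 6.67, 6.84, 6.71 and 6.76 in thymus, against 8.44, 9.13 and 8.92 in brain, with an adjusted p of 0.000932. The synaptic genes Syp and Syt1 were detected on 1 and 2 of 8 thymus arrays, against 6 of 6 brain arrays each. Most thymus arrays detected fewer of all probes, at 7.75% to 84.9%, against 56.2% to 94.4% on brain arrays. Eng, listed with stroma and vessels, was likewise detected on 3 of 8 thymus and 6 of 6 brain arrays. The detection counts of Syp and Syt1 are therefore not read as an organ difference. The probe of Slc17a7 did not separate the organs, at 7.60 ± 0.26 in thymus against 7.54 ± 0.18 in brain (SD over mice) and an adjusted p of 0.881. Nor did Sncb, at 7.24 ± 0.28 in thymus and 7.38 ± 0.22 in brain (adjusted p = 0.744). Syn1 measured 6.97 ± 0.29 in thymus, above 6.47 ± 0.32 in brain, without passing the test (adjusted p = 0.285). Epcam, a marker of thymic epithelium, measured 7.22 ± 0.13 in thymus, below 7.79 ± 0.82 in brain (adjusted p = 0.495, 2 mice each). Of the 4 erythroid genes in this marker list, 0 had a named probe.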

How the data were processed

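Gene expression was measured on 2-colour spotted cDNA arrays in 4 mutant thymuses and 3 mutant brains. Per the file headers, the deposited scanner files hold foreground and local background intensity for 20205 spots (20160 probes) in the Cy5 and Cy3 scans, not normalised by the authors. The authors' deposited value table equals log2 ratios of background-subtracted medians plus a constant in 99.7% to 99.9% of rows (tolerance 0.01), of unknown origin, with column medians of -1.37 to 0.865, and served as an alternative.

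Foreground means were corrected by normexp (offset 50) and loess (span 0.3), without flagged spots, in limma 3.58.1 (statmod 1.5.0, R 4.3.3). The offset pulls dim ratios toward 0. A mouse needed values on both arrays, and a tested probe needed 2 mice. Values were tested against 0 with lmFit and eBayes, Benjamini-Hochberg adjusted over all tested probes. The number of arrays limits the precision. The mouse is the replicate, the pool counts as 1 control sample, and the spread among controls is left out. The procedure was tested on simulated data. No arrays held identical values.

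Probes were named through RefSeq accessions (961) or synonyms (490). Members and gene lists were chosen with earlier results of these data known. Genes are named by rule: 1 sign on all 8 arrays, the 10 highest and lowest means of 1 sign in 4 mice, the 5 largest SDs, up to 4 members of smallest p per list, and the 5 smallest p between organs. Ndufb3 and Timp3, outside the rule, were chosen after their values were seen. Some list members are not reported here.

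The numbers of mice 1 to 3 pair brain with thymus of 1 animal. For mice 3 and 4 a pair of digits of the animal's identifier is exchanged between labels and file names, on every array of the animal, and either spelling groups the arrays alike. Across probes, such pairs deviated from their group means with correlations of 0.00870, -0.00855 and -0.00744, against 0.00182 for unequal numbers.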

Additional observations from a re-analysis of the deposited data

Results flagged for a closer look

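Of the 96 named genes, 54 had 4 mice and were screened for 1 mouse far from the others, which chance flags in about 1 in 20 groups, and 3 were found. Atp5a1, of the ATP synthase, had -0.53 in mouse 4, with the other 3 mice at -0.031 to 0.053. Tra2b, a splicing regulator, had -0.40 in mouse 4, with the others at -0.031 to 0.042. Fkbp3, a prolyl isomerase, had -0.091 in mouse 3, with the others at 0.032 to 0.041. Mouse 4, the animal in 2 of these 3, also had the array with the fewest detected probes, at 7.75%. The median Cy3 signal over background of the Cy3 mutant array of mouse 3 was 2.59, apart from the other thymus arrays, and 84.9% of its probes were detected. The SD of ratios over probes on 1 brain array of mouse 1 was 0.218, below that of the other brain arrays. No cause was tested for any of these.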

How the results depend on the processing

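The comparison of mutant thymus with the pool called 0 probes under all 19 alternatives, with 38 to 856 probes at an unadjusted p below 0.05 and smallest adjusted p-values of 0.0514 (median centring) to 0.936. The difference between organs called 0 probes under 19 of 20 alternatives, with 0 when each mouse was left out and 0 with the replicate block for mice 1 to 3. With foreground medians it called 1 probe without a gene name, MG-3-50n9, at 0.21 in thymus and -0.56 in brain (adjusted p = 0.0339), against 0.692 with foreground means, and the cause was not tested. The count of probes of different spot intensity, 200, was 335 with median centring of intensities, 121 where detection on every array was required, which left 484 probes to test, and 84 with the replicate block, which leaves out mouse 4. Leaving out each mouse gave 54 to 139. With flagged spots kept the split was 78 higher and 108 lower in thymus, against 18 and 182. Of the 96 named genes, 29 kept 1 sign under every alternative and 67 changed it under at least 1, and none passed the threshold under any. Between 0 and 60 of them moved by more than their SD, most with the authors' table. Ccdc43 ranged over 0.11 to 0.37, Satb1 over 0.068 to 0.56, Fcgr2b over 0.060 to 0.53, Sncb over -0.27 to -0.11 and Adcy6 over -0.32 to -0.054. Abhd8 ranged over 0.027 to 1.08, with both limits from single dye orientations. The mutant in Cy3 alone changed the sign of 30 named genes, the mutant in Cy5 alone of 20 and the authors' table of 27. Signal over background limits what could be seen: 5321 of 20160 probes could be tested in thymus.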

Other observations

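Several genes with values in fewer than 4 mice had ratios of larger size, in the mean or only in single mice. Maged1 had -0.25 in mouse 2, -0.46 in mouse 3 and -0.23 in mouse 4. Ugcg had -0.32 in mouse 3 and -0.35 in mouse 4. Aatk had -0.43 in mouse 2 and -0.23 in mouse 3. Ndufb3 had 0.37 in mouse 1, -0.11 in mouse 2 and -0.41 in mouse 3, and Timp3, an inhibitor of metalloproteases, had 0.39 in mouse 1, -0.054 in mouse 2 and -0.51 in mouse 4. These last genes had mice on both sides of 0. Some genes were measured by 2 probes: Tfip11, a splicing factor, averaged 0.20 ± 0.20 (SD, n = 3 mice) and 0.16 ± 0.24 (SD, n = 4 mice), Cdca7l averaged -0.18 ± 0.21 (SD, n = 3 mice) and -0.21 ± 0.13 (SD, n = 2 mice), and Nbr1 averaged -0.039 ± 0.15 (SD, n = 2 mice) and 0.13 ± 0.17 (SD, n = 3 mice). These 3 genes were chosen after their values were seen, and none of their probes passed the test.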
